A study of Homo sapiens with 8 samples.

Results

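The insulin-like growth factor (IGF) system was followed through the 7 genes of the IGF-binding proteins, IGFBP1 to IGFBP7, and the 3 receptor genes IGF1R, IGF2R and INSR. The 10 genes were taken by symbol from the protein-coding rows of a table of 58735 genes, and no threshold on a value was used. Each symbol matched 1 row. All but IGFBP5 reached 1 FPKM in at least 2 libraries, so 9 of the 10 were among the 14349 genes tested. FPKM counts fragments per kilobase of a gene and is scaled by a library denominator.

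IGF1 and IGF2 are insulin-like growth hormones that circulate almost entirely bound to IGF-binding proteins. The binding proteins extend the life of the hormones, keep them from their receptor or release them when a protease cuts the carrier. IGF1R and INSR are related receptor tyrosine kinases that signal through IRS proteins, PI3 kinase and AKT, while IGF2R has no kinase and carries IGF2 and mannose 6-phosphate-tagged enzymes to lysosomes. In the body the liver makes most circulating IGF1, and hepatocytes secrete IGFBP1 under the control of insulin.

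The libraries came from a human liver line in 3 states. HepaRG is a hepatic progenitor line that can form hepatocyte-like and biliary-like cells, and M14A is HepaRG with edited genes, with FoxM1 and HNF4A given as transfected in its genotype label. Printed M14A (2 libraries) was M14A mixed with the bioink GP, bioprinted and collected 4 h later. Flask M14A (3 libraries) was the same edited line in planar culture, and flask HepaRG (3 libraries) was the parental line, labelled WT, in planar culture. All 3 groups share the HepaRG background and the label of hepatic stem cells, and the sources used here do not say whether M14A is 1 clone. Printed constructs were snap-frozen and ground, whereas cells in flasks were taken up as pellets, and the effects of printing and of collection cannot be told apart in any comparison that uses the printed cells.

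Depth was 15632154 to 19148262 reads per library, recovered from the values. Mitochondrially encoded genes took 13.3 and 16.4% of reads in printed M14A, 8.21 to 9.72% in flask M14A and 6.91 to 7.25% in flask HepaRG. Flask M14A library 1 stood apart from libraries 2 and 3 (Pearson r over genes of 0.957 and 0.948, where those libraries had 0.988 with each other). Members' calls that change without it are therefore given both ways, while the counts of the other gene lists are given with all libraries. HNF4A averaged 15.4 ± 2.50 FPKM in printed M14A, 40.9 ± 2.70 in flask M14A and 6.14 ± 0.423 in flask HepaRG (SD), in the direction of its label. FOXM1 was no higher in either M14A group, at 10.1 ± 0.0594 FPKM in printed M14A and 10.8 ± 2.06 in flask M14A, against 13.8 ± 0.991 in flask HepaRG. The hepatocyte and HepaRG marker list summed to 947 to 1092 FPKM in printed M14A, 562 to 875 in flask M14A and 148 to 166 in flask HepaRG. Of its genes, ALB reached 79.1 and 83.3 FPKM in printed M14A, 23.1 to 29.1 in flask M14A and 2.01 to 2.42 in flask HepaRG. In the same order of groups, SERPINA1 averaged 459, 334 and 9.55 FPKM and KRT8 280, 166 and 103. APOB did not follow ALB at printing, with 26.1 ± 11.9 FPKM in printed M14A, 53.7 ± 26.5 in flask M14A and 11.2 ± 1.08 in flask HepaRG. AFP and TF stayed below 1 FPKM in every library, and AFP was lowest in flask M14A. Nothing in the labels says that replicates were separate cultures, and the p-values therefore reflect the spread of these libraries, possibly a technical one.

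The edited line differed from its parent in the RNA levels of several binding proteins. Flask M14A held more IGFBP1, IGFBP3, IGFBP6 and IGFBP7 RNA than flask HepaRG and far less IGFBP2. IGFBP4, the most abundant member in every library, did not pass the test on the deposited scale. After printing, IGFBP3 and IGFBP6 were higher again, and all 3 receptors were lower, at 0.496-fold (IGF1R), 0.460-fold (IGF2R) and 0.553-fold (INSR) of flask M14A on the scale of FPKM + 1. In the fit over all genes, 5 of the 9 tested members were higher and 1 was lower in flask M14A than in flask HepaRG, where 16.1% of all 14349 genes were called higher and 14.7% lower. Between printed and flask M14A, 2 members were higher and 3 lower, beside 17.7% of all genes called higher and 15.5% lower. Between printed M14A and flask HepaRG, 4 were higher and 3 lower, beside 28.1% of all genes in each direction. Without flask M14A library 1, 4040 of 14219 genes were called higher and 3849 lower in printed against flask M14A. All libraries gave 2544 and 2226. In flask M14A against flask HepaRG the counts were 2893 and 3224 without that library, and 2317 and 2112 with all libraries. Called means a two-sided limma p below 0.05 after Benjamini-Hochberg adjustment. Log2 fold changes are of FPKM + 1, which understates the change of low genes. The comparisons share libraries, so their values are set side by side and not against each other.

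**Figure D1:**
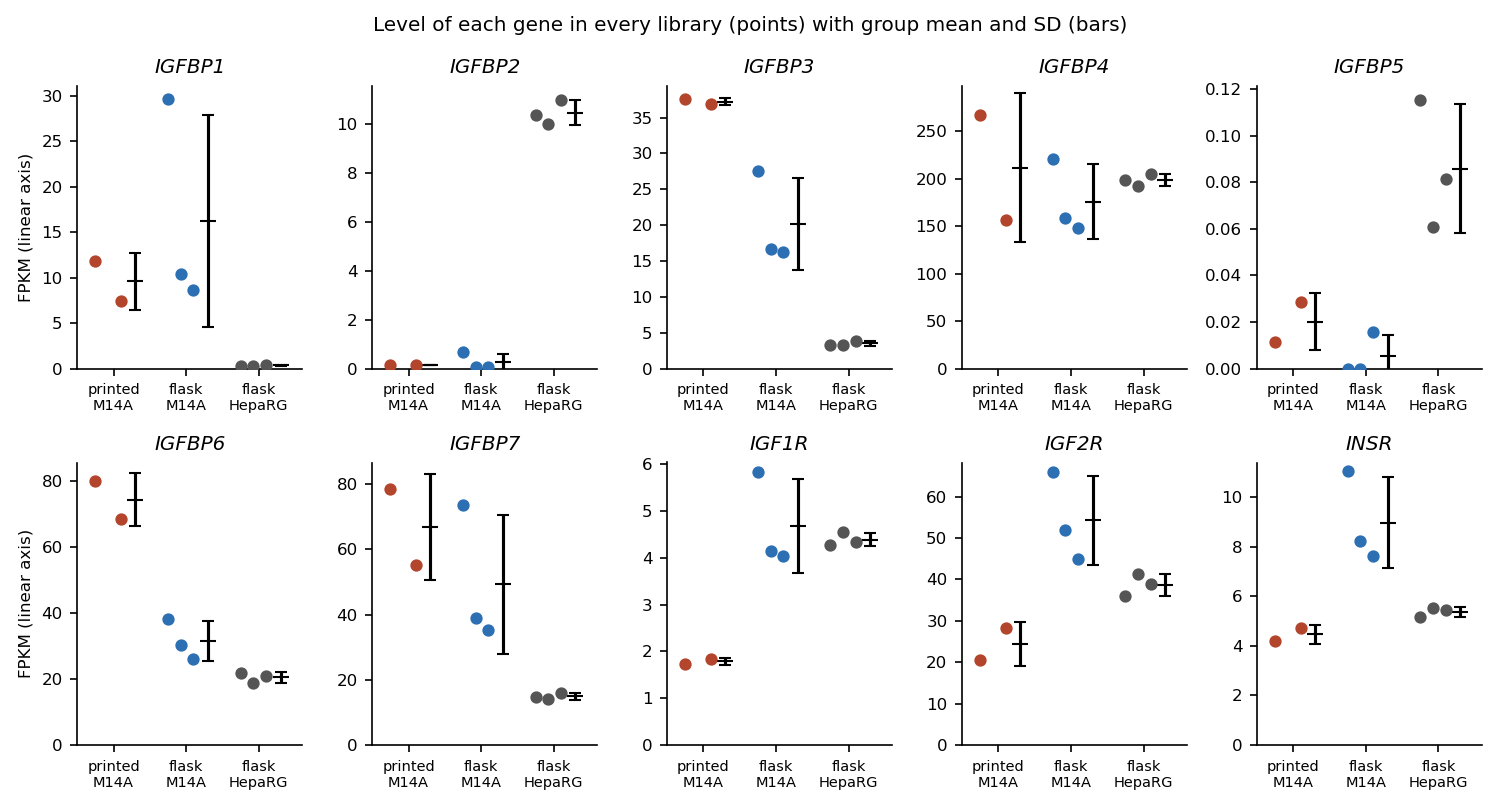
FPKM of the 10 genes (linear vertical axis from 0, a scale of its own in each panel) in every library of printed M14A, flask M14A and flask HepaRG, from left to right. Points are libraries and the bars beside them are the group mean and SD (n = 2, 3 and 3). IGFBP3 and IGFBP6 stand highest in the printed libraries, IGFBP2 lies near 0 in both M14A groups, and the 3 receptors stand lowest in the printed libraries.

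IGFBP1 is the binding protein that hepatocytes secrete when insulin is low (ENSG00000146678, chromosome 7, 45888357 to 45893668 on GRCh38, plus strand). It had 11.8 and 7.39 FPKM in printed M14A, 29.6, 10.4 and 8.67 FPKM in flask M14A, and 0.289, 0.289 and 0.433 FPKM in flask HepaRG. Every M14A library, printed or not, stood above every HepaRG library, and the printed values overlapped those of flask M14A, where library 1 was far above the other 2. The rise in flask M14A over flask HepaRG was 3.49 on the log2 scale (SE 0.39, adjusted p = 2.3e-04), and 2.98 without flask M14A library 1 (adjusted p = 2.2e-05). Flask HepaRG had only 9, 11 and 15 reads of IGFBP1, so the added 1 FPKM caps this rise. Over the alternatives it ran from 2.98 to 5.35. Printed M14A differed from flask HepaRG by 2.96 (adjusted p = 6.4e-04). Between printed and flask M14A the log2 fold change was -0.53 (95% interval -1.52 to 0.46, adjusted p = 0.38), and -0.02 without flask M14A library 1.

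IGFBP2, a major binding protein of fetal liver and of serum (ENSG00000115457, chromosome 2, 216632828 to 216664436, plus strand), went the other way. It had 0.157 and 0.155 FPKM in printed M14A, 0.656, 0.0537 and 0.0426 FPKM in flask M14A, and 10.4, 10.02 and 11.0 FPKM in flask HepaRG. These values stood for 10 and 12 reads in printed M14A and 50, 5 and 4 reads in flask M14A, against 932, 1098 and 1098 reads in flask HepaRG. The groups of the 2 lines were far apart, and 50 of the 59 flask M14A reads came from library 1. In flask M14A against flask HepaRG, IGFBP2 fell by 3.23 on the log2 scale (SE 0.18, adjusted p = 4.4e-06). The added 1 FPKM caps such a fall, so the ratios of read totals are given as well. The FPKM-scaled ratio of flask M14A to flask HepaRG was 0.0214 (95% interval 0.0163 to 0.0277, counting error only), but 0.0046 without flask M14A library 1 (0.0021 to 0.0088), so its size rests on that library. The ratio of printed M14A to flask HepaRG was 0.0149 (0.00933 to 0.0226). The ratio of printed to flask M14A was 0.695 (0.406 to 1.15) with all libraries and turned to 3.24 (1.43 to 7.99) without flask M14A library 1.

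IGFBP3 is the main serum carrier of IGFs, which it holds in a complex with the acid-labile subunit (ENSG00000146674, chromosome 7, 45912245 to 45921874, minus strand). It had 37.5 and 36.9 FPKM in printed M14A, 27.6, 16.7 and 16.2 FPKM in flask M14A, and 3.28, 3.34 and 3.91 FPKM in flask HepaRG. The 3 groups did not overlap. IGFBP3 rose in flask M14A over flask HepaRG by 2.19 (SE 0.20, adjusted p = 6.5e-05), and in printed over flask M14A by 0.89 (SE 0.22, adjusted p = 0.015). The second call was lost without printed library 1 or 2 (0.88 and 0.91, adjusted p = 0.079 and 0.071), and was 1.13 without flask M14A library 1 (adjusted p = 1.4e-04). At equal FPKM totals, which lower all genes of the printed libraries alike, it was 0.16 (adjusted p = 0.36).

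IGFBP6 binds IGF2 far more tightly than IGF1 (ENSG00000167779, chromosome 12, 53097436 to 53102345, plus strand). It had 80.0 and 68.5 FPKM in printed M14A, 38.2, 30.4 and 26.2 FPKM in flask M14A, and 21.8, 18.7 and 20.9 FPKM in flask HepaRG. No group overlapped another. Printed M14A exceeded flask M14A by 1.22 (SE 0.18, adjusted p = 0.0019), and this call held at equal FPKM totals (0.47, adjusted p = 0.0081) and without flask M14A library 1 (1.36). The step of flask M14A over flask HepaRG was 0.59 (SE 0.16, adjusted p = 0.024). That smaller step was not called without flask M14A library 2 (0.61) or without flask HepaRG library 1, 2 or 3 (0.63, 0.53 and 0.60).

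The promoters of the 2 binding proteins that were higher in both steps are shown next, as RefSeq gives them for GRCh38.p14, from 250 bases before the RefSeq start to 50 after it. RefSeq starts can differ from those of GENCODE 29, which bound the genes above: the RefSeq start lies 602 bases inside the gene in IGFBP3 and 231 bases inside it in IGFBP6. IGFBP3 lies on the minus strand at chr7:45921223-45921522 and IGFBP6 on the plus strand at chr12:53097417-53097716. Capitals mark the forkhead core GTAAACA, the motif of the FOXO and FOXA factors.
IGFBP3: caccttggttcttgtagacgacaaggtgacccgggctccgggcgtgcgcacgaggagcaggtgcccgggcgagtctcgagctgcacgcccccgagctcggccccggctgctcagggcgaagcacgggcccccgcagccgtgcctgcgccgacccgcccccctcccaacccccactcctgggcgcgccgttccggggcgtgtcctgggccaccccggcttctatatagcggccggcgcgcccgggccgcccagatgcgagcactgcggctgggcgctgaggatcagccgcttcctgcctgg
IGFBP6: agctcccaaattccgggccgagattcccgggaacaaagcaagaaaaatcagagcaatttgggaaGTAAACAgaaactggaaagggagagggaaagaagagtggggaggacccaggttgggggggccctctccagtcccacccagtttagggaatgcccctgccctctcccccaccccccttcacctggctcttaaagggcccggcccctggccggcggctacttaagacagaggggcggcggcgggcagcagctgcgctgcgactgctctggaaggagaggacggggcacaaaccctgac
Of the motifs searched on both strands, which were GTAAACA, the hypoxia response core ACGTG, the HNF1 site core GTTAAT, the HNF4 core CAAAGTC and TATAAA, the IGFBP6 window held GTAAACA once, at position -186 from the RefSeq start, which is 45 bases after the GENCODE start. None of these motifs was found in the IGFBP3 window. GTAAACA is in 3.42% of the 35116 promoters of that table. GTTAAT is in 6.88% and CAAAGTC in 3.38%, and neither was in any of the 10 promoters found for 8 of the genes. TATAAA, in 11.5% of all promoters, was in that of IGFBP4, at position -29 from the RefSeq start.

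IGFBP7 binds IGFs weakly and is known as a matrix-associated protein that also binds insulin (ENSG00000163453, chromosome 4, 57030773 to 57110385, minus strand). It had 78.4 and 55.2 FPKM in printed M14A, 73.7, 38.9 and 35.2 FPKM in flask M14A, and 14.7, 14.04 and 16.03 FPKM in flask HepaRG. Both M14A groups stood above flask HepaRG and overlapped each other through flask M14A library 1. IGFBP7 rose in flask M14A over flask HepaRG by 1.58 (SE 0.27, adjusted p = 0.0025). Between printed and flask M14A its 0.49 did not pass (95% interval -0.20 to 1.17, adjusted p = 0.24), although it did without flask M14A library 1 (0.81, adjusted p = 0.0048). Of its exon bases, 18.9% lie opposite exons of other genes, IGFBP7-AS1 among them, whose reads cannot be told apart without strand.

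IGFBP4, which holds IGFs back until the protease PAPPA cuts it (ENSG00000141753, chromosome 17, 40443461 to 40457731, plus strand), was the most abundant member in all 8 libraries. It had 267 and 156 FPKM in printed M14A, 221, 159 and 148 FPKM in flask M14A, and 199, 192 and 204 FPKM in flask HepaRG. The printed libraries lay on either side of all flask HepaRG values, so the groups overlapped. The log2 fold change was -0.20 in flask M14A over flask HepaRG (95% interval -0.70 to 0.31, adjusted p = 0.53), and 0.24 in printed over flask M14A (-0.32 to 0.80, adjusted p = 0.49). After quantile normalization IGFBP4 was called lower in both comparisons, at -0.53 (adjusted p = 0.00595) and -0.58 (adjusted p = 0.0087). Against flask HepaRG the printed cells gave 0.04 (-0.52 to 0.61), which turned to -0.92 at equal FPKM totals (adjusted p = 0.0033), where the median of all genes was -0.77, and to -1.10 after quantile normalization (adjusted p = 1.7e-04).

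IGFBP5, a binding protein that adheres to matrix, was close to absent. It had 1 and 3 reads in printed M14A, 0, 0 and 2 reads in flask M14A, and 14, 9 and 11 reads in flask HepaRG, at most 0.115 FPKM. The HepaRG reads were few but above those of every M14A library. The FPKM-scaled ratio of flask M14A to flask HepaRG was 0.0669 (95% interval 0.00779 to 0.261), and of printed M14A to flask HepaRG 0.249 (0.0643 to 0.699), counting error only. IGFBP2 and IGFBP5 are neighbours on chromosome 2, 7.668 kb apart with their 3′ ends facing (IGFBP5, ENSG00000115461, is at 216672105 to 216695525 on the minus strand). Both had their highest values in flask HepaRG. IGFBP1 and IGFBP3 face each other in the same way on chromosome 7, 18.576 kb apart, and both had their lowest values in flask HepaRG.

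**Figure D2:**
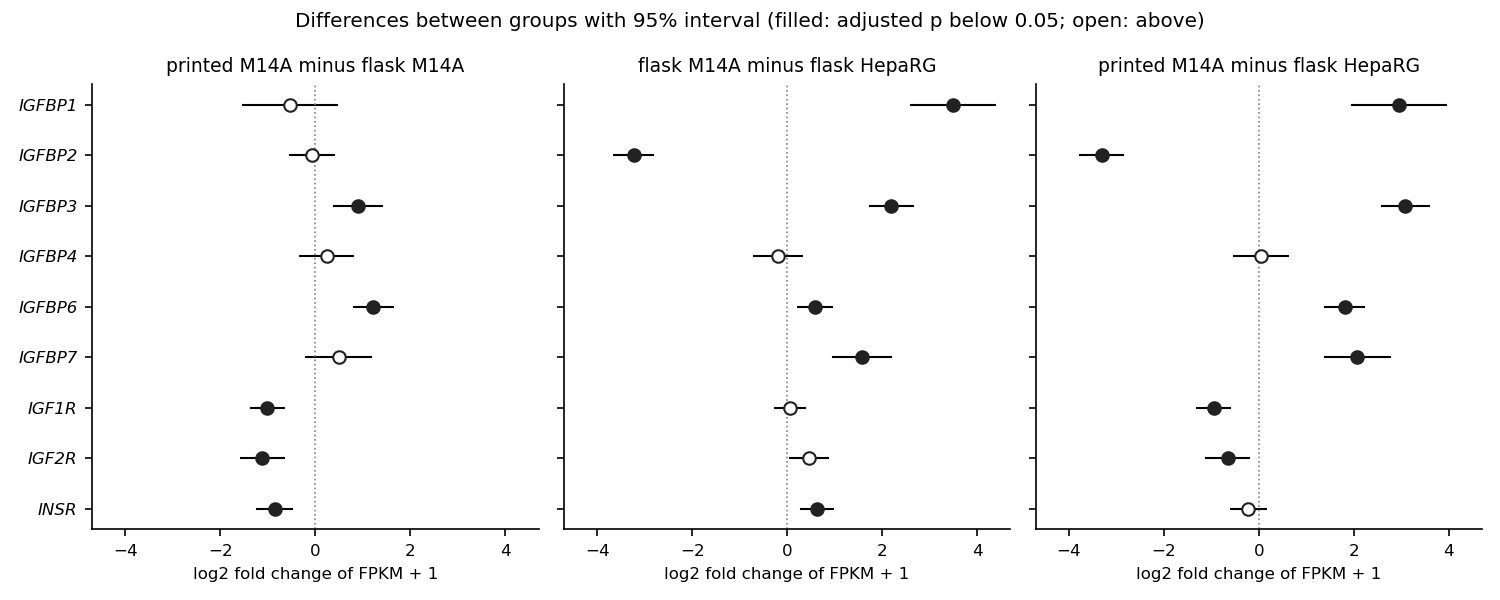
Log2 fold change of FPKM + 1 (horizontal axis) for the 9 tested genes (rows) in printed minus flask M14A, flask M14A minus flask HepaRG, and printed M14A minus flask HepaRG. Lines are 95% intervals and filled points have an adjusted p below 0.05. In the left panel IGFBP3 and IGFBP6 lie right of 0 and the 3 receptors left of it. In the middle panel IGFBP1 lies at 3.49 and IGFBP2 at -3.23.

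Added up, the 7 binding protein genes came to 475 and 325 FPKM in printed M14A, 391, 255 and 234 in flask M14A, and 249, 239 and 257 in flask HepaRG. The sums of flask M14A overlapped those of both other groups, while both printed sums lay above all flask HepaRG sums. The share of IGFBP4 did not overlap between groups, though printed library 1 and flask M14A library 1 were close. IGFBP4 was 56.2 and 48.2% of the sum in printed M14A, 56.5, 62.2 and 63.1% in flask M14A, and 79.7, 80.5 and 79.6% in flask HepaRG. IGFBP6 and IGFBP7 took 16.8 and 16.5% in printed library 1 and 21.1 and 17.0% in printed library 2. In flask M14A, IGFBP6 took 9.77 to 11.9% and IGFBP7 15.0 to 18.9%, and in flask HepaRG they took 7.83 to 8.74% and 5.89 to 6.24%. IGFBP3 was 7.91 and 11.4% of the sum in printed M14A, 6.53 to 7.06% in flask M14A and 1.31 to 1.52% in flask HepaRG. IGFBP2 held 0.0330 and 0.0478% in printed M14A, 0.0182 to 0.168% in flask M14A and 4.17 to 4.28% in flask HepaRG. Without IGFBP4 the sums were 208 and 168 FPKM in printed M14A, 170, 96.4 and 86.3 in flask M14A, and 50.6, 46.4 and 52.4 in flask HepaRG. Those sums were higher in every M14A library than in every HepaRG library, with no test made. At equal FPKM totals the mean of the full sum turned to 265 FPKM in printed M14A, 324 in flask M14A and 322 in flask HepaRG, while as deposited it was 400 ± 106 in printed M14A, 293 ± 84.9 in flask M14A and 248 ± 9.17 in flask HepaRG.

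**Figure D3:**
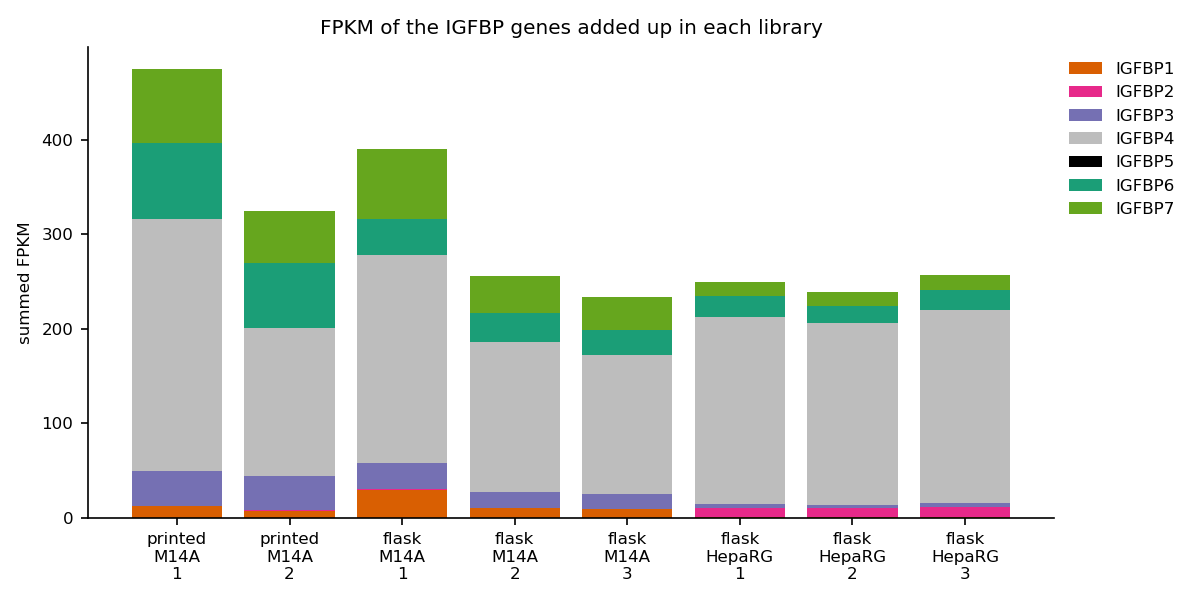
FPKM of the 7 IGFBP genes stacked for each library (vertical axis, summed FPKM from 0). IGFBP4, in grey, is the largest block in every bar, at 48.2 to 63.1% in the M14A libraries and 79.6 to 80.5% in the HepaRG libraries, and IGFBP2, at the foot of the bars, stands out in flask HepaRG.

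All 3 receptors were lowest in the printed cells in deposited FPKM. IGF1R is the tyrosine kinase that carries the growth signal of IGF1 and IGF2 (ENSG00000140443, chromosome 15, 98648539 to 98964530, plus strand). It had 1.74 and 1.84 FPKM in printed M14A, 5.84, 4.16 and 4.05 FPKM in flask M14A, and 4.28, 4.55 and 4.34 FPKM in flask HepaRG. The printed libraries were below all others, while the 2 flask groups overlapped. IGF1R fell in printed against flask M14A by 1.01 on the log2 scale (SE 0.15, adjusted p = 0.0022), and against flask HepaRG by 0.95 (SE 0.15, adjusted p = 0.0010). Between the flask-grown lines the log2 fold change was 0.06 (95% interval -0.25 to 0.38, adjusted p = 0.76).

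IGF2R clears IGF2 from the cell surface (ENSG00000197081, chromosome 6, 159969099 to 160113507, plus strand). It had 20.6 and 28.2 FPKM in printed M14A, 65.9, 51.9 and 44.9 FPKM in flask M14A, and 35.9, 41.2 and 38.8 FPKM in flask HepaRG. The 3 groups did not overlap, with the printed cells lowest and flask M14A highest. IGF2R fell in printed against flask M14A by 1.12 (SE 0.20, adjusted p = 0.0041). Against flask HepaRG the fall was 0.66 (SE 0.20, adjusted p = 0.021), a call lost without printed library 1 (-0.44) and without flask HepaRG library 2 or 3 (-0.61 and -0.65). Flask M14A against flask HepaRG gave 0.46 (95% interval 0.06 to 0.87), which missed the threshold (adjusted p = 0.082) and passed without flask M14A library 3 (0.59, adjusted p = 0.043).

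INSR is the insulin receptor (ENSG00000171105, chromosome 19, 7112255 to 7294034, minus strand). It had 4.20 and 4.73 FPKM in printed M14A, 11.0, 8.24 and 7.63 FPKM in flask M14A, and 5.16, 5.54 and 5.43 FPKM in flask HepaRG. Here too the groups did not overlap. INSR was higher in flask M14A than in flask HepaRG by 0.63 (SE 0.14, adjusted p = 0.011), a call lost without flask HepaRG library 1 (0.61, adjusted p = 0.054). It fell in printed against flask M14A by 0.85 (SE 0.16, adjusted p = 0.0052). Printed M14A and flask HepaRG differed by -0.22 (95% interval -0.59 to 0.14, adjusted p = 0.26). This last value passed without flask M14A library 1 (adjusted p = 0.034) and at equal FPKM totals (-1.01). Equal totals lowered the median of all genes in that comparison to -0.77, and relative to it INSR was at -0.24, against -0.17 as deposited.

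The ratio of the 2 kinase receptors did not overlap between any of the groups. That ratio of INSR to IGF1R FPKM was 2.41 and 2.57 in printed M14A, 1.89, 1.98 and 1.88 in flask M14A, and 1.20, 1.22 and 1.25 in flask HepaRG. IGF2R exceeded IGF1R 11.8- and 15.3-fold in printed M14A, 11.3-, 12.5- and 11.1-fold in flask M14A, and 8.39-, 9.07- and 8.95-fold in flask HepaRG. A ratio within a library does not depend on how libraries are scaled. It is not free of the trend over gene length described below, as INSR, IGF1R and IGF2R span 10451, 13941 and 17843 exon bases. The part of length in these ratios was not tested.

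The receptor promoters are shown because the 3 genes moved together after printing. RefSeq places IGF1R on the plus strand at chr15:98648289-98648588, IGF2R on the plus strand at chr6:159968832-159969131 and INSR on the minus strand at chr19:7294365-7294664 of GRCh38.p14. Set against GENCODE 29, the RefSeq start is the same in IGF1R, 17 bases upstream in IGF2R and 380 bases upstream in INSR, whose window therefore lies wholly before the GENCODE gene. Capitals mark ACGTG on either strand, the core of the hypoxia response element, which is also part of the E-box CACGTG.
IGF1R: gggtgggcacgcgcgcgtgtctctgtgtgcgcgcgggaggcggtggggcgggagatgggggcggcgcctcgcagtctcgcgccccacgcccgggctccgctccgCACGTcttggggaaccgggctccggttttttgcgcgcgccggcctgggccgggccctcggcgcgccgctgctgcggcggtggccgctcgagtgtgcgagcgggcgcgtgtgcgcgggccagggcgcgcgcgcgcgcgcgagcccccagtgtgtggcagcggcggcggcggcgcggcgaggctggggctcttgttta
IGF2R: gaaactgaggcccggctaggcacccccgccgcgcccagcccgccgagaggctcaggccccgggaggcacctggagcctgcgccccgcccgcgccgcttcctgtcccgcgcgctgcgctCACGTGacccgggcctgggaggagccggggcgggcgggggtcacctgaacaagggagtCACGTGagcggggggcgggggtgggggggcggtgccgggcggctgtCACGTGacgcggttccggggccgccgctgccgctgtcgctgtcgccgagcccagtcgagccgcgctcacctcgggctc
INSR: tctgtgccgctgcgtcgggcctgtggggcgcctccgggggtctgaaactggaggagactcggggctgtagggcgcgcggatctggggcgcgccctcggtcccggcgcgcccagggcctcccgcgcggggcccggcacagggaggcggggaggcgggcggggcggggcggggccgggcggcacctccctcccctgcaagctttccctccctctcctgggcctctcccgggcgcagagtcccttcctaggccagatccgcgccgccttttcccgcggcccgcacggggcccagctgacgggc
ACGTG is in 21.4% of the 35116 promoters. The IGF2R window held it at 3 places, at positions -131, -73 and -27 from the RefSeq start, each within CACGTG and so read on both strands. In IGF1R it stood once, on the minus strand, at position -146, and in INSR none of the searched motifs was found. ACGTG also stood in an IGFBP2 window, at position 32 from a RefSeq start that lies 26739 bases inside the GENCODE gene. No searched motif stood in the other IGFBP2 windows. The receptor windows are rich in G and C, at 79.7% for IGF1R, 78.7% for IGF2R and 78.3% for INSR, against a median of 58.7% over all promoters. The binding protein windows ran from 55.3% in one of IGFBP2 to 74.0% in IGFBP4 and 74.7% in IGFBP3.

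Gene length moved with the fall of the receptors. Their annotated exons span 13941 bases in IGF1R, 17843 in IGF2R and 10451 in INSR, longer than 97.2, 99.0 and 92.0% of tested genes, whereas the tested binding proteins span 1346 to 4767 bases. Among the 1320 tested genes of at least 10000 bases, 30.2% were called lower and 3.94% higher in printed than in flask M14A, with a median log2 fold change of -0.31. Genes of 1000 to 2000 bases, the class of IGFBP1, IGFBP6 and IGFBP7, had a median of 0.39, and 39.7% of them were called higher. With each library's trend over gene length removed, a step added after seeing the data, the fall in printed against flask M14A was 0.64 for IGF1R, 0.67 for IGF2R and 0.57 for INSR (adjusted p = 0.038, 0.049 and 0.049). IGFBP3 and IGFBP6 then kept log2 fold changes of 0.90 and 0.93 (adjusted p = 0.014 and 0.0040). Against flask HepaRG, the same step ended the calls of IGF1R (-0.42, adjusted p = 0.10) and IGF2R (-0.05, adjusted p = 0.86), leaving IGFBP2 as the only member called lower. INSR, not called in that comparison before, turned from -0.22 to 0.20 (adjusted p = 0.40). Between the flask-grown lines the step brought IGF2R past the threshold, higher in M14A by 0.62 (adjusted p = 0.042). The part of RNA quality in these differences was not tested.

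**Figure D4:**
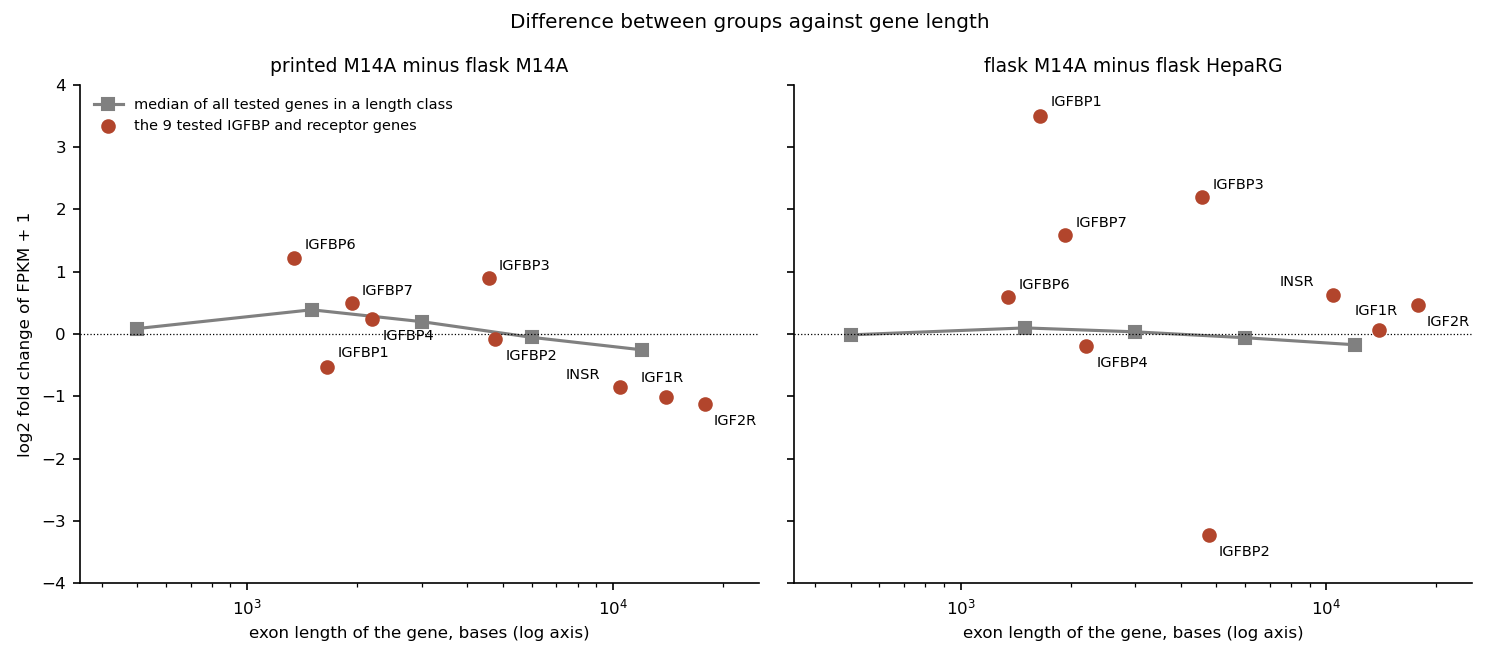
Log2 fold change of FPKM + 1 (vertical axis) against annotated exon length (horizontal log axis, bases) for the 9 tested genes, in red, in printed minus flask M14A and flask M14A minus flask HepaRG. Grey squares are medians of all tested genes in 5 length classes, drawn at a point inside each class. In the left panel the grey line falls to -0.25 in the longest class, where the receptors lie lower still, at -0.85 to -1.12.

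Scaling set the level from which the changes in printed cells are read. The deposited FPKM summed to 514152 and 499995 in printed M14A, 272290 to 350931 in flask M14A and 254141 to 266419 in flask HepaRG. The all-gene median of printed minus flask M14A was 0.01 on the log2 scale as deposited, -0.51 at equal totals, and -0.39 when mitochondrial genes were left out of the total. The share of higher genes among all called genes in that comparison was 53.3% as deposited, 6.65% at equal totals and 12.9% without mitochondrial genes. Relative to the median of all genes, IGFBP3 then stood at 0.66 at equal totals, against 0.88 as deposited. The 3 receptors were called lower and IGFBP6 higher in printed against flask M14A under each of these scalings, whereas IGFBP7 changed sign without a call (0.49 as deposited, -0.26 at equal totals). Among the settings run, IGFBP1 was called lower in that comparison at equal totals alone (-1.21, adjusted p = 0.030). In bulk RNA, fewer cells that express a gene and less RNA per cell cannot be told apart.

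The order of levels among the 10 genes, on the FPKM scale, differed between the groups. In printed M14A, IGFBP4 stood first, followed by IGFBP6 and IGFBP7, whose ranges overlapped, and then by IGFBP3, IGF2R, IGFBP1, INSR, IGF1R, IGFBP2 and IGFBP5. In flask M14A, IGF2R came second, and each neighbour from IGF2R through IGFBP7, IGFBP6, IGFBP3 and IGFBP1 to INSR overlapped the next. In flask HepaRG no neighbours overlapped, and the order was IGFBP4, IGF2R, IGFBP6, IGFBP7, IGFBP2, INSR, IGF1R, IGFBP3, IGFBP1 and IGFBP5. IGFBP3 thus stood below both kinase receptors in HepaRG and above them in every M14A library.

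The ligands were nearly silent. IGF2 and INS had 0 reads in all 8 libraries, but 75.0 and 90.0% of the exon bases of the 2 IGF2 rows lie in other genes, whose reads the counting could have dropped. IGF1 had 1 read each in flask M14A libraries 2 and 3 and none elsewhere, with 82.4% of its exon bases opposite another gene. IGFALS, the acid-labile subunit, had 2 to 12 reads per library. No ligand gene was tested.

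The other genes of the pathway were read through 9 lists with 66 tested genes. In flask M14A against flask HepaRG, 15 of the 66 were higher and 14 lower, with a median log2 fold change of -0.01 beside -0.04 over all genes. Of all 14349 genes, 16.1% were called higher and 14.7% lower there. In printed against flask M14A, 6 of the 66 were higher and 13 lower (median -0.14, beside 0.01), where 17.7% of all genes were higher and 15.5% lower. In printed M14A against flask HepaRG, 15 were higher and 25 lower (median -0.32, beside -0.05), where 28.1% of all genes were called each way. The counts of each list below stand beside these same shares. Among genes lower at printing, IRS1, IRS2, PDPK1, PTPRF, RPTOR and LRP1 exceed 8000 bases, a class with a median of -0.25. FOXO1 and FOXO3 lie between 4000 and 8000 (median -0.05). The part of length in these counts was not tested.

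Proteases that cut binding proteins, and their inhibitors, were all called between the flask-grown lines. Of 7 tested, 3 were higher and 4 lower in flask M14A than in flask HepaRG. ADAM12, a metalloprotease that cuts IGFBP3 and IGFBP5, had 0.718 ± 0.0342 FPKM in printed M14A, 0.914 ± 0.0955 in flask M14A and 12.8 ± 0.746 in flask HepaRG (flask M14A minus flask HepaRG -2.85, adjusted p = 4.9e-07). STC1, stanniocalcin 1, which inhibits PAPPA, had 7.28 and 10.3 FPKM in printed M14A, 5.60, 3.16 and 2.96 in flask M14A, and 0.422, 0.377 and 0.391 in flask HepaRG. Its rise was 1.77 between the flask lines (adjusted p = 3.0e-04) and 1.02 at printing (adjusted p = 0.011), and the call at printing was lost without printed library 2 (0.79) and at equal totals (0.37). PAPPA, with 11573 exon bases, averaged 1.17 FPKM in printed M14A, 2.70 in flask M14A and 0.812 in flask HepaRG. It was higher between the flask lines (1.03, adjusted p = 3.1e-04) and lower at printing (-0.76, adjusted p = 0.0039). PAPPA2 was lower in flask M14A than in flask HepaRG (-1.46, adjusted p = 2.4e-05). Neither was followed over the alternatives. The metalloprotease MMP7 had 40.4 and 40.9 FPKM in printed M14A, 5.41, 10.7 and 12.8 in flask M14A, and 3.47, 3.30 and 3.74 in flask HepaRG. It was higher in printed than in flask M14A by 2.04 (SE 0.28, adjusted p = 0.0015) and higher in flask M14A than in flask HepaRG by 1.17 (SE 0.25, adjusted p = 0.0085).

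Of 9 receptor substrates and adaptors, 0 were higher and 2 lower in printed than in flask M14A, namely IRS2 and IRS1, which couple both kinases to PI3 kinase. IRS2 had 6.88 and 5.69 FPKM in printed M14A, 25.7, 25.1 and 23.6 in flask M14A, and 12.8, 13.5 and 13.7 in flask HepaRG. It fell at printing by 1.83 (SE 0.13, adjusted p = 3.6e-04) and was higher in flask M14A than in flask HepaRG by 0.85 (adjusted p = 7.5e-04). IRS1 had 2.31 and 2.19 FPKM in printed M14A, 7.88, 7.85 and 6.94 in flask M14A, and 6.93, 7.88 and 7.43 in flask HepaRG, a fall at printing of 1.39 (adjusted p = 5.3e-04). The adaptor SHC1 was called higher in flask M14A than in flask HepaRG (0.59, adjusted p = 0.038), a call that ended with any of 6 libraries left out in turn (0.56 to 0.66), and 15.2% of its exon bases lie in other genes.

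Of 7 tested FOXO factors and genes that insulin represses in liver, 0 were higher and 4 lower in printed than in flask M14A. The untested PCK1 and G6PC of that list were near the floor. PCK1 went the other way, with 19 and 36 reads in printed M14A, 2, 6 and 4 in flask M14A, and 3, 0 and 0 in flask HepaRG. G6PC had 5 reads in flask M14A library 2 and none elsewhere. FOXO1, the factor that AKT excludes from the nucleus and that drives IGFBP1 in fasting liver, had 4.17 and 4.15 FPKM in printed M14A, 18.0, 17.8 and 16.7 in flask M14A, and 11.5, 13.6 and 12.0 in flask HepaRG. It fell at printing by 1.84 (SE 0.13, adjusted p = 3.6e-04), and its paralog FOXO3 by 1.46 (SE 0.13, adjusted p = 5.3e-04). FOXO1 was higher in flask M14A than in flask HepaRG by 0.47 (adjusted p = 0.014), lost without flask HepaRG library 1 or 3 (0.43 and 0.45). TXNIP, an arrestin that restrains glucose uptake, averaged 3.59 ± 0.384 FPKM in printed M14A, 6.12 ± 0.288 in flask M14A and 2.34 ± 0.315 in flask HepaRG. Its log2 fold change was 1.10 between the flask lines (adjusted p = 1.9e-04) and -0.63 at printing (adjusted p = 0.0078), the second lost without printed library 1 (-0.55). SESN3, a FOXO target that restrains mTOR, was lower in flask M14A than in flask HepaRG (-1.07, adjusted p = 0.0013).

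Of 16 tested genes of the PI3 kinase, AKT and mTOR relay, 1 was higher and 4 lower in flask M14A than in flask HepaRG, and 1 was higher and 3 lower in printed than in flask M14A. In printed M14A against flask HepaRG, 2 were higher and 8 lower. PIK3CD, a catalytic subunit, was higher in flask M14A than in flask HepaRG (0.88, adjusted p = 5.6e-04), and the regulatory subunit PIK3R1 was lower (-1.06, adjusted p = 0.018). The PIK3R1 call ended without flask HepaRG library 1, 2 or 3 (-1.08, -1.03 and -1.08). RPTOR, the scaffold of mTOR complex 1, had 3.85 and 2.65 FPKM in printed M14A, 10.2, 7.04 and 6.36 in flask M14A, and 6.65, 7.12 and 7.17 in flask HepaRG (printed minus flask M14A -1.05, adjusted p = 0.0055). PDPK1, the kinase that activates AKT, also fell at printing (-0.87, adjusted p = 0.0041), with 23.7% of its exon bases opposite other genes.

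Of 9 receptor dampers, 4 were higher and 1 lower in flask M14A than in flask HepaRG, and 1 was higher and 1 lower in printed than in flask M14A. SOCS1, an inhibitor of cytokine and insulin signalling, averaged 4.35 ± 2.08 FPKM in printed M14A, 4.41 ± 0.636 in flask M14A and 1.25 ± 0.0931 in flask HepaRG (flask lines 1.26, adjusted p = 0.0018). The ubiquitin ligase NEDD4 had 9.13 and 12.2 FPKM in printed M14A, 4.62, 15.3 and 15.8 in flask M14A, and 3.40, 3.60 and 3.16 in flask HepaRG. Its call in flask M14A over flask HepaRG (1.40, adjusted p = 0.023) ended with any of 5 libraries left out (1.13 to 1.43). At printing its log2 fold change was 0.00 with all libraries and -0.52 without flask M14A library 1 (adjusted p = 0.012). The phosphatases PTPRF and PTPN2 were called in printed against flask M14A at -0.76 and 0.60 (adjusted p = 0.029 and 0.022). Both calls ended without printed library 1 (-0.83 and 0.69) or 2 (-0.68 and 0.51), and that of PTPRF also without flask M14A library 2 (-0.81, adjusted p = 0.051) or any 1 flask HepaRG library (-0.76, adjusted p = 0.051 to 0.052).

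Among the 8 genes of mannose 6-phosphate sorting, the pathway that IGF2R serves, 0 were higher and 2 lower in flask M14A than in flask HepaRG, and 1 was higher and 1 lower at printing. The sorting receptor SORT1 averaged 19.3 ± 2.85 FPKM in printed M14A, 24.6 ± 1.31 in flask M14A and 41.3 ± 2.25 in flask HepaRG (flask lines -0.72, adjusted p = 0.0030). GGA1, a coat adaptor for these receptors, was lower in flask M14A than in flask HepaRG too (-0.82, adjusted p = 0.0089). GNPTG, a subunit of the enzyme that adds the tag, was called higher at printing (0.61, adjusted p = 0.0085), and lost that call without printed library 1 (0.54) and at equal totals, where the value was -0.10. Exons of other genes lie opposite 30.9% of its bases. GGA3 was called lower at printing (-0.50, adjusted p = 0.037) and not with any of 6 libraries left out in turn (-0.57 to -0.43).

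Of 5 tested cell-surface partners of binding proteins, 1 was higher in flask M14A than in flask HepaRG, and 1 was higher and 1 lower at printing. TMEM219, described as a receptor of IGFBP3, had 50.8 and 44.5 FPKM in printed M14A, 24.7, 20.9 and 19.8 in flask M14A, and 19.5, 18.6 and 20.2 in flask HepaRG (printed minus flask M14A 1.10, SE 0.15, adjusted p = 0.0013). LRP1, an endocytic receptor that also binds IGFBP3, had 14.4 and 10.8 FPKM in printed M14A, 39.0, 33.0 and 28.0 in flask M14A, and 28.3, 34.1 and 31.8 in flask HepaRG (printed minus flask M14A -1.34, SE 0.19, adjusted p = 0.0016). The 2 described IGFBP3 receptors thus went opposite ways at printing, but they differ in length. TMEM219 has 2428 exon bases and LRP1 20839. In that comparison the median was 0.20 for genes of 2000 to 4000 bases and -0.31 for those of at least 10000. Over the alternatives, removal of the length trend among them, TMEM219 stayed at 0.35 to 1.19 and LRP1 at -2.04 to -0.84. ITGA5, whose integrin is bound by IGFBP1, averaged 187 ± 19.4 FPKM in printed M14A, 182 ± 18.3 in flask M14A and 101 ± 4.24 in flask HepaRG (flask lines 0.84, adjusted p = 0.0014).

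Of 3 tested genes of the growth hormone axis, STAT5A was called, higher in flask M14A than in flask HepaRG (1.17, adjusted p = 0.0014). At printing none was called, with STAT5A at -0.55 (adjusted p = 0.067) and STAT5B at -0.22 (adjusted p = 0.39). Of the 2 tested IGF2 messenger RNA-binding proteins, IGF2BP3 was lower in flask M14A than in flask HepaRG (-0.92, adjusted p = 0.0015), with 17.9% of its exon bases opposite another gene. IGF2BP2 was called higher there (0.43, adjusted p = 0.029), and not with any of 5 libraries left out in turn (0.41 to 0.46). Neither was called at printing, where IGF2BP2 stood at -0.32 (adjusted p = 0.11).

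**Figure D5:**
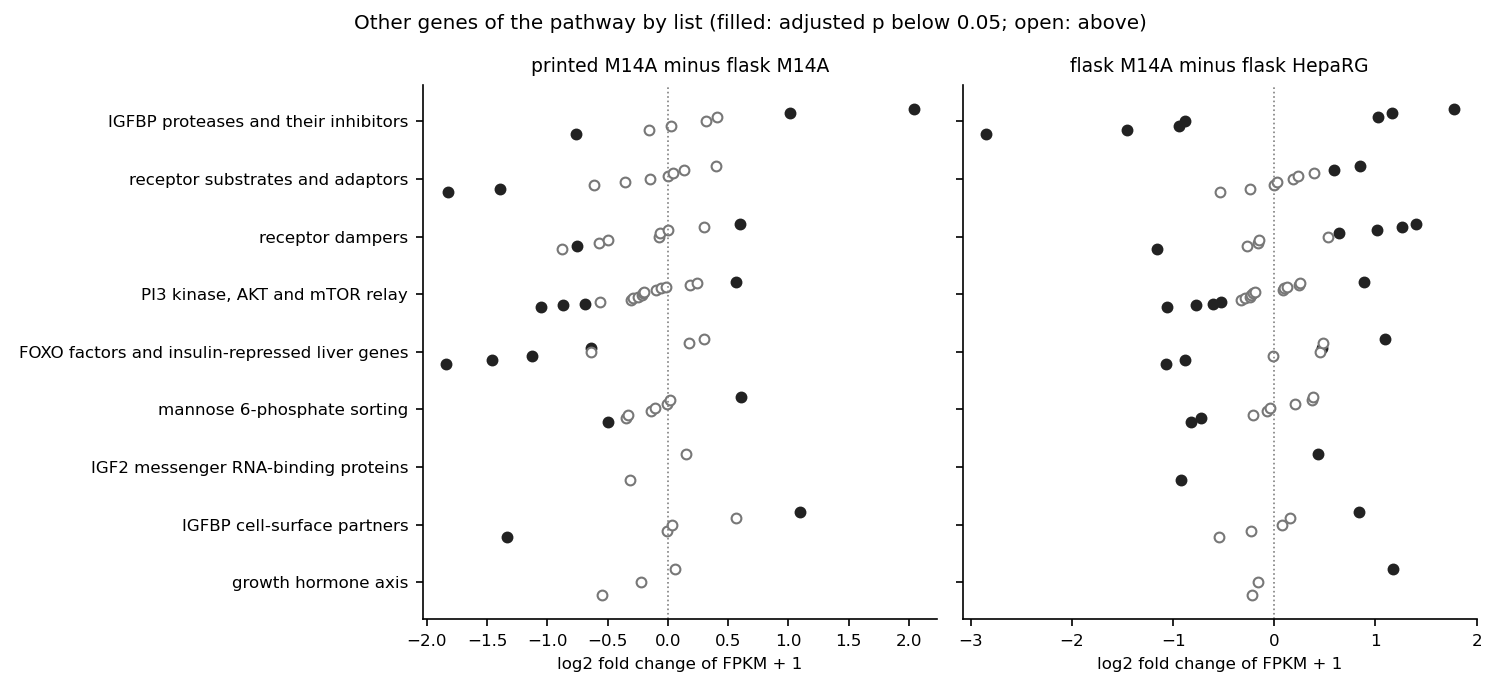
Log2 fold change of FPKM + 1 (horizontal axis) of every tested gene in the 9 lists (rows) in printed minus flask M14A and flask M14A minus flask HepaRG. Each point is a gene, filled where the adjusted p is below 0.05. In the left panel the FOXO list reaches -1.84 and the substrates -1.83, and in the right panel the protease list runs from -2.85 to 1.77.

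For the 3 members with the widest range of group means, the protein-coding genes with the most similar pattern over the 8 libraries were found by the mean absolute difference of centred log2(FPKM + 1). Nearest to IGFBP1 was MAGEB17, a gene of the MAGE family, at 0.207, against a median of 1.56 over all genes, with 25.8% of its exon bases opposite another gene. TMC6 and the plasma glycoprotein LRG1 followed at 0.228 and 0.230. LRG1 had 28.2 and 23.8 FPKM in printed M14A, 56.5, 32.3 and 28.9 in flask M14A, and 3.34, 3.42 and 3.72 in flask HepaRG, with library 1 again highest in flask M14A. IGFBP2 was nearest to the chitinase-like protein CHI3L1, at 0.0838, with 1.03 and 1.12 FPKM in printed M14A, 1.73, 1.19 and 0.910 in flask M14A, and 17.2, 19.6 and 21.0 in flask HepaRG. GPNMB, a membrane glycoprotein, and the glucuronosyltransferase UGT1A9, which shares 61.2% of its exon bases with sister genes, came next at 0.158 and 0.161, against a median of 1.51. IGFBP3 was nearest to the cytokine IL32, at 0.0873 against a median of 1.22, which had 710 and 581 FPKM in printed M14A, 387, 281 and 262 in flask M14A, and 62.8, 61.03 and 71.1 in flask HepaRG. SERPINA6, the corticosteroid-binding globulin, and SLC51B, a subunit of a bile acid exporter, stood at 0.0911 and 0.115.

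Markers of other cell types were measured in every group, and their part in the members' differences was not tested. The 8 stellate cell and fibroblast markers summed to between 83.5 and 103 FPKM in printed M14A, 44.2 to 72.0 in flask M14A and 34.9 to 39.4 in flask HepaRG. Of the 5 tested, 1 was higher and 3 lower in flask M14A than in flask HepaRG, and 1 was higher and 0 lower in printed than in flask M14A. The muscle filament gene DES made up most of the sum, with 89.0 and 69.9 FPKM in printed M14A, 56.4, 36.8 and 32.9 in flask M14A, and 29.9, 28.0 and 32.2 in flask HepaRG, and was higher at printing by 0.93 (adjusted p = 0.016). The smooth muscle actin ACTA2 averaged 12.4 ± 0.252 FPKM in printed M14A, 11.2 ± 2.26 in flask M14A and 1.46 ± 0.214 in flask HepaRG (flask lines 2.30, adjusted p = 1.0e-05). COL1A1 (-0.72), PDGFRB (-1.39) and LRAT (-0.45) were lower in flask M14A than in flask HepaRG, and COL1A2 was at or below 0.00911 FPKM in every library.

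The 6 leukocyte markers summed to between 9.98 and 11.8 FPKM in printed M14A, 6.60 to 10.6 in flask M14A and 2.35 to 2.89 in flask HepaRG. Both tested ones were higher in flask M14A than in flask HepaRG, LAPTM5 by 1.60 (adjusted p = 8.9e-05) and CD14 by 0.72 (adjusted p = 0.020), while PTPRC was at or below 0.0208 FPKM. The 6 endothelial markers summed to between 1.91 and 2.49 FPKM in printed M14A, 2.02 to 2.83 in flask M14A and 1.09 to 1.27 in flask HepaRG. KDR, the 1 tested, was higher in flask M14A than in flask HepaRG by 0.65 (adjusted p = 0.0042), and CDH5 had 0 reads throughout. The 6 biliary and progenitor markers summed to between 46.9 and 50.3 FPKM in printed M14A, 26.3 to 62.0 in flask M14A and 116 to 121 in flask HepaRG. Of the 5 tested, 1 was higher and 3 lower in flask M14A than in flask HepaRG. CD24 averaged 0.414 ± 0.175 FPKM in printed M14A, 0.509 ± 0.315 in flask M14A and 18.8 ± 0.807 in flask HepaRG (flask lines -3.73), SPP1 was lower by a log2 fold change of -2.34 and SOX9 by one of -0.62, and KRT7 was higher by 1.05. KRT7 was also higher at printing (1.14, adjusted p = 0.0012). KRT19 had 28.7 and 25.1 FPKM in printed M14A, 49.0, 11.6 and 11.6 in flask M14A, and 41.2, 41.5 and 45.4 in flask HepaRG and was not called, and EPCAM had no reads in either M14A group and at most 0.253 FPKM in flask HepaRG.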

How the data were processed

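Per the labels' protocols, the RNA came from TRIzol lysates and each library was built from 1 µg with a NEBNext Ultra RNA kit. Reads went through HISAT2 2.0.5 and featureCounts 1.5.0-p3, per the submitters' processing notes. Neither tool's options, nor the build or strand setting, are given in the sources used here. The authors deposited one FPKM table with a column per library (8) and the gene lengths. All 58735 genes have the coordinates of GENCODE 29 (GRCh38), which is the build printed. Multiplied by gene length, FPKM were whole multiples of their smallest product (1 read, within 0.01) for 99.92 to 99.98% of values per library, which gave the reads. The denominators that the authors used were 0.818 and 0.853 times those reads in printed M14A, 0.968 to 1.19 in flask M14A and 1.18 to 1.20 in flask HepaRG. Columns of per-sample values without a sample numbered 0.

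Genes that reached 1 FPKM in 2 or more libraries entered limma 3.58.1 (R 4.3.3; lmFit, contrasts.fit, then eBayes using a trend) on the log2(FPKM + 1) scale. A single model held the 8 libraries, with 3 means and 5 residual degrees of freedom, so the 2 printed libraries borrow their spread from all groups. The Benjamini-Hochberg adjustment ran over all 14349 genes, and tests are two-sided. The procedure was tested on simulated reads. They had the same spread in every library and so did not mimic an outlying one such as flask M14A library 1. Intervals of read ratios are exact binomial and cover counting error only. Replicates of a group differed by more than sampling noise (chi-square per degree of freedom 2.69 to 69.3), so none was counted as a duplicate.

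The members and the lists were chosen with earlier results of these data known. All members were named, and from each other list up to 2 called genes with the largest change in flask M14A minus flask HepaRG and in printed minus flask M14A, or else the tested gene with the highest mean. PAPPA and PAPPA2 were named besides. Promoters came from RefSeq (GRCh38.p14) by symbol. IGFBP1 and IGFBP7 had no entry there. Protein sequences were not used here. The alternatives tried were a pseudocount of 0.1 or 0.01, filtering at 5 FPKM or not at all, equal-total scaling with and without mitochondrial genes, quantile normalization, a fit of the groups compared alone, voom weights on the recovered reads, eBayes with no trend, the replicate number as a block, protein-coding genes alone, a threshold of 0.01, each library left out, and, added after the data were seen, removal of each library's length trend (natural spline, 5 degrees of freedom), and IGFBP2 read ratios without each flask M14A library.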

Additional observations from a re-analysis of the deposited data

How the results depend on the processing

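Over all alternatives the 9 tested members kept direction and side of the threshold in 542 of 591 cases; 8 gained a call, 19 lost one and 22 changed sign. Of those 22, 18 were called in neither fit, and the other 4 were all IGFBP4. The cause of these changes was not tested unless the setting itself gives it. In flask M14A minus flask HepaRG, 1393 genes were called higher and 948 lower at 5 FPKM, where fewer genes are tested, 1460 and 1084 at a threshold of 0.01, and 3543 lower at equal FPKM totals. With 1 library left out in turn, 1569 to 2893 were higher and 1219 to 3224 lower, members higher numbered 3 to 6, and 3 at the threshold of 0.01. Members lower were 2 with no filter (IGFBP5 joins, adjusted p = 0.033) and 2 after quantile normalization (IGFBP4 joins, adjusted p = 0.00595). In printed minus flask M14A, genes higher were 483 at equal totals, 813 without mitochondrial genes, 1062 in a fit of those groups alone and 1265 at 0.01. Genes lower were 6779, 5466, 954 and 1103 under these settings and 1260 at 5 FPKM. With 1 library left out, 1127 to 4040 were higher and 1217 to 3849 lower. Members higher were 1 under the first 4 of these settings and 1 to 3 with a library left out. In printed M14A minus flask HepaRG, equal totals gave 1439 higher and 9427 lower genes, the same without mitochondrial genes 1971 and 7891, the filter at 5 FPKM 1807 lower and the threshold of 0.01 2677 lower. Members lower were 5 under both equal-total scalings and 1 with the length trend removed. The mean IGFBP sum without IGFBP4 was 188 FPKM in printed M14A, 117 in flask M14A and 49.8 in flask HepaRG, and the full sum at equal totals was 265 in printed M14A and 322 in flask HepaRG.

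The signs of the named genes that turned follow, as log2 fold changes under the setting named. In flask M14A minus flask HepaRG, these were IGF1R (-0.11), IRS1 (-0.16), RPTOR (-0.055), LRP1 (-0.12) and TMEM219 (-0.043) at equal totals, IGF1R (-0.048), IRS1 (-0.093) and LRP1 (-0.052) at equal totals without mitochondrial genes, FOXO3 (0.091) with the length trend removed, and LRP1 (-0.10) after quantile normalization. With 1 library left out, the range crossed 0 for FOXO3 (-0.066 to 0.054), IGF1R (-0.078 to 0.14), IRS1 (-0.018 to 0.076), LRP1 (-0.041 to 0.19) and RPTOR (-0.053 to 0.25). In printed minus flask M14A, these were IGFBP2 (0.0055) with pseudocount 0.1, IGFBP2 (0.34) with pseudocount 0.01, IGFBP2 (0.075), IGFBP4 (-0.58), ADAM12 (0.0065), SHC1 (-0.40), NEDD4 (-0.093), SOCS1 (0.014), PIK3CD (0.044) and ITGA5 (-0.69) after quantile normalization, IGFBP2 (0.50) with voom weights, IGFBP4 (-0.52), IGFBP7 (-0.26), SHC1 (-0.62), NEDD4 (-0.69), PTPN2 (-0.0030), SESN3 (-0.10), GGA1 (-0.56), GNPTG (-0.10), IGF2BP3 (-0.061) and ITGA5 (-0.72) at equal totals, IGFBP4 (-0.34), IGFBP7 (-0.083), SHC1 (-0.44), NEDD4 (-0.53), SESN3 (-0.010), GGA1 (-0.43), IGF2BP3 (-0.013) and ITGA5 (-0.54) at equal totals without mitochondrial genes, and IGFBP4 (-0.020), ADAM12 (0.11) and PIK3CD (0.073) with the length trend removed. With 1 library left out, the range crossed 0 for FOXM1 (-0.19 to 0.060), GGA1 (-0.36 to 0.40), IGFBP2 (-0.19 to 0.14), IGFBP4 (-0.15 to 0.62), ITGA5 (-0.068 to 0.14), NEDD4 (-0.52 to 0.27) and SOCS1 (-0.47 to 0.34). In printed M14A minus flask HepaRG, these were IGFBP4 (-0.92), SHC1 (-0.23), PTPN2 (-0.32), TXNIP (-0.25), GNPTG (-0.50), IGF2BP2 (-0.76), ITGA5 (-0.084) and STAT5A (-0.083) at equal totals, IGFBP4 (-0.67), PTPN2 (-0.12), TXNIP (-0.065), GNPTG (-0.26) and IGF2BP2 (-0.53) at equal totals without mitochondrial genes, IGFBP4 (-1.10), SHC1 (-0.017) and ITGA5 (-0.059) after quantile normalization, IGFBP4 (-0.0027) with the replicate block, and IGFBP4 (-0.34), INSR (0.20) and PTPRF (0.21) with the length trend removed. With 1 library left out, the range crossed 0 for IGF2BP2 (-0.054 to 0.28) and IGFBP4 (-0.34 to 0.43).

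The labels do not say that equal replicate numbers mark a shared culture or day. Correlations of same-numbered libraries' deviations from their group means were 0.487 and 0.365 between printed and flask M14A. They were -0.043 and 0.074 between printed M14A and flask HepaRG, and -0.071, 0.081 and -0.16 between the flask lines. Libraries of unlike number in printed and flask M14A gave -0.365 and -0.433 for printed library 1, and -0.487 and 0.433 for printed library 2. The deviations of only 2 printed libraries mirror each other, so these values cannot tell whether the numbers pair the libraries. With the replicate block, 2257 genes were higher and 2162 lower in flask M14A minus flask HepaRG, 2286 and 2094 in printed minus flask M14A, and 3793 and 3887 in printed M14A minus flask HepaRG. Members called stayed at 5 and 1, 2 and 3, and 4 and 3.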
